A study of Mus musculus with 6 samples.

Results

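A group of 10 imprinted genes that set growth before birth were followed in E18.5 growth plate cartilage of mice with and without expression of a mutant Idh1. The genes were Igf2, H19, Igf2r, Dlk1, Meg3, Peg3, Mest, Cdkn1c, Plagl1 and Grb10, and they were chosen by their gene names as the 10 members among 46078 genes of the count tables. Dlk1 and Meg3 were each listed a second time on a patch scaffold of the genome, so that 12 rows carried the 10 names, and those 2 extra rows had 0 counts in all 6 libraries and were not used. RNA of the distal femur and proximal tibia growth plates was sequenced in bulk, with 1 library per sample, in 3 control samples (Idh1 LSL/+) and 3 Idh1 mutant samples (Col2a1-Cre; Idh1 LSL/+). Both groups carried the lox-stop-lox allele, in which a stop sequence flanked by lox sites blocks mutant Idh1 until Cre removes it. Cre was driven by regulatory sequence of Col2a1, the collagen gene of cartilage, so that the mutants differed from the controls in carrying the Cre transgene as well as in expressing mutant Idh1, and mutant Idh1 was expressed in cells with Col2a1-driven Cre and their descendants. The labels give the age as E18.5, although their text on animal care mentions 2 months.

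An imprinted gene is transcribed mainly from 1 parental copy. As a textbook rule, copies expressed from the father favour growth of the fetus and copies expressed from the mother restrain it, and the genes lie in clusters governed by shared, differentially methylated control regions. In the embryo these genes are active in mesoderm, including cartilage, bone and muscle, and most of them decline in many organs after birth. The counts here sum both parental copies, so that imprinting itself was not measured.

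The libraries held 23445687 to 30415773 counts. Idh1, the targeted gene, had 37.3, 39.2 and 65.4 CPM in controls 1, 2 and 3 and 47.6, 47.7 and 56.3 CPM in mutants 1, 2 and 3, so that its summed level did not separate the groups (CPM stands for counts relative to the scaled total of the library). Among the libraries, mutant 3 stood apart in Xist, with 26356 counts against 0 to 13 in the other libraries, and in genes of chromosome Y, with 512 counts against 4193 to 5829. Control 3 had the lowest summed level of 7 cartilage markers (4932 CPM against 6855 to 9140 CPM in the other libraries) and of 3 hypertrophic markers (67.1 CPM against 163 to 288 CPM). Of these markers, Col2a1, Acan, Matn1, Hapln1, Col11a1, Col10a1 and Mmp13 were lowest in control 3. Sox9 was lower still in mutants 2 and 3, and Col9a1 and Ihh were lower still in mutant 2. Control 3 also had the highest sum of 10 skeletal muscle markers (19980 CPM against 12845 to 18799 CPM). The bone markers did not move together in this library. Col1a1, which makes up most of their sum, was highest in control 3 (47781 CPM against 33199 to 39221 CPM), while Ibsp (120 CPM against 332 to 1475 CPM) and Dmp1 (6.76 CPM against 21.4 to 198 CPM) were lowest there. Cartilage markers were present in every library (Col2a1 at 1923 to 5245 CPM), and so were markers of bone and muscle. In bulk samples, fewer cells of a type and less RNA per cell cannot be told apart.

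The members were among the most abundant transcripts of these bulk libraries. Together they took 4.34% to 5.02% of all counts of a library, and H19 and Igf2 alone took 3.09% to 3.59%. Ranked per length among all 46078 genes, with levels in TPM (counts divided by the exon length of the gene and scaled to the same sum in every library), H19 ranked between 1 and 3 in the 6 libraries and Igf2 between 10 and 13. The lowest of the members, Igf2r, still ranked between 443 and 573. The muscle marker Acta1 ranked between 6 and 9 and Col2a1 between 34 and 100. The levels are thus those of mixed samples and not of chondrocytes alone. In order of the mean over 6 libraries, H19 had 26093 TPM, Igf2 7057 TPM, Cdkn1c 2580 TPM, Mest 1450 TPM and Dlk1 1173 TPM. They were followed by Meg3 with 511 TPM, Peg3 with 492 TPM, Grb10 with 453 TPM, Plagl1 with 296 TPM and Igf2r with 244 TPM. Most neighbours in this order did not overlap in TPM over the libraries. The exceptions were Mest and Dlk1, Meg3 and Peg3, and Peg3 and Grb10, whose ranges overlapped, and Meg3 was above Peg3 in only 3 of 6 libraries. The order depends on the summed exon length, which is 18089 bases for Meg3, 13314 bases for Peg3 and 1931 bases for Cdkn1c. By counts alone, the median rank of Meg3 over the libraries was 20.5 in place of 234.5.

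**Figure D1:**
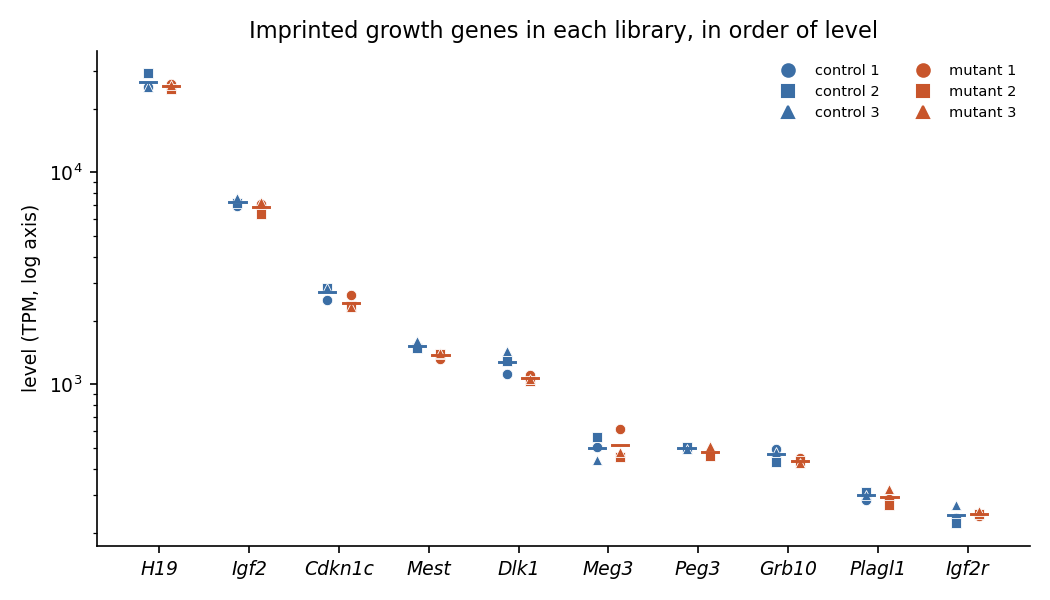
Level of each of the 10 genes in each library, in TPM on a log axis, with controls in blue and mutants in orange, the symbol giving the replicate and the short bar the group mean. From H19 at 24738 to 29364 TPM to Igf2r at 222 to 269 TPM, the levels span 2 orders of magnitude, while neighbours such as Meg3 and Peg3 overlap.

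The genotypes were then compared. Of 16813 genes tested, 32 (0.190%) had an adjusted p under 0.05 by the quasi-likelihood test of edgeR, with p-values adjusted after Benjamini and Hochberg, 9 higher (0.0535%) and 23 lower (0.137%) in the mutants, and 0 of the 10 members did. At an unadjusted p under 0.05, where 8.64% of all tested genes lay (3.71% higher and 4.93% lower in the mutants), there were also 0 of the 10. DESeq2 and limma-voom called 0 members as well, and edgeR called 0 members without mutant 3. At an unadjusted p under 0.05, DESeq2 had 1 member among 1236 of the 16813 genes tested, and limma-voom 0 members among 1427. The median log2 fold change of mutant against control was -0.063 over the members and -0.0026 over all genes tested. In 8 of the 10 members the fold change was below 0, as it was in 50.7% of all tested genes. All 10 members passed the filter on low counts in both groups, with at least 16847 counts in every library. The following intervals apply to the whole bulk samples, not to the cells with mutant Idh1 alone. The 95% intervals of the fold, mutant over control, reached down to 0.690 (Dlk1) and up to 1.31 (Meg3), and the intervals of the other 8 members lay between 0.742 and 1.21.

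**Figure D2:**
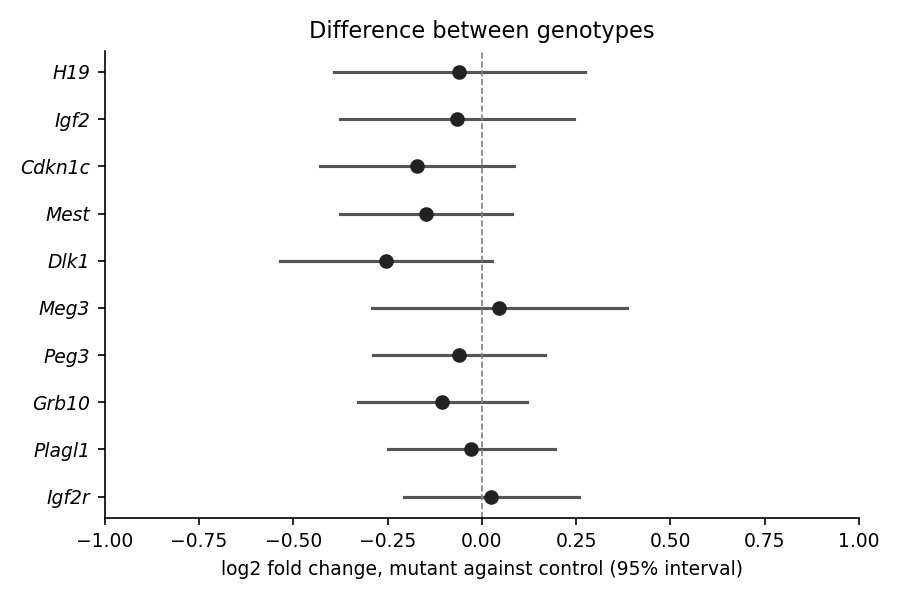
Log2 fold change of mutant against control for each of the 10 genes (points) with its 95% interval from edgeR (lines). All 10 intervals include 0, and the fold changes run from -0.25 for Dlk1 to 0.05 for Meg3.

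Igf2 (ENSMUSG00000048583, chromosome 7 from 142650766 to 142666816 in GRCm38, reverse strand) encodes insulin-like growth factor 2, the main growth factor of the fetus, and is expressed from the paternal copy. It was at 12536, 13174 and 14224 CPM in controls 1 to 3 and at 13158, 11800 and 13201 CPM in mutants 1 to 3. The groups overlapped, with control 3 highest and mutant 2 lowest. Its log2 fold change was -0.066 ± 0.14 (SE, edgeR adjusted p = 0.949), with a 95% interval of the fold from 0.771 to 1.18. H19 (ENSMUSG00000000031, chromosome 7 from 142575529 to 142578143, reverse strand) lies 72.6 kb from Igf2 and is a long noncoding RNA of the maternal copy that shares its enhancers with Igf2. Its levels were 18877, 22465 and 19719 CPM in controls 1 to 3 and 20071, 18960 and 19573 CPM in mutants 1 to 3. Control 2 was highest, and the range of the mutants lay within that of the controls. For H19 the log2 fold change was -0.059 ± 0.15 (SE, edgeR adjusted p = 0.956).

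Per kilobase of exon, H19 had 3.63, 4.11 and 3.34 times the counts of Igf2 in controls 1, 2 and 3, and 3.68, 3.88 and 3.58 times in mutants 1, 2 and 3. This ratio is taken within a library and needs no scaling between libraries. On the log2 scale it was 1.88 ± 0.150 (SD, n = 3) in the controls and 1.89 ± 0.0588 (SD, n = 3) in the mutants, a difference of 0.0099 (two-sided p = 0.9 in an exact permutation test, in which 3 against 3 samples cannot go below 0.1). The difference was smaller than the SD within either group.

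The transcripts of 4 members overlap microRNA genes, whose rows in the tables show how the overlap was counted. An exon of H19 holds Mir675, which limits growth of the placenta. An intron of Igf2 holds Mir483, an intron of Mest holds Mir335, and exons of Meg3 hold Mir770 and Mir1906-1. The mature sequences, from RefSeq on GRCm38.p6, are shown for the microRNAs of the H19 and Igf2 locus and of Mest, with the seed (bases 2 to 8) in capitals.
mmu-miR-675-5p: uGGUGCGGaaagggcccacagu
mmu-miR-675-3p: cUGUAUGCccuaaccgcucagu
mmu-miR-483-5p: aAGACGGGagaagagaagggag
mmu-miR-483-3p: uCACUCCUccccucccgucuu
mmu-miR-335-5p: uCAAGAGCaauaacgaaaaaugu
mmu-miR-335-3p: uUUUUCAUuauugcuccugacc
The 6 seeds differ from each other. Mir675, which lies inside an exon of H19 and shares all its bases with it, had 0 counts in all 6 libraries, although H19 had 466713 to 688533 counts. Reads that fall on more than 1 gene were not assigned by the counting. Mir770 and Mir1906-1, inside exons of Meg3, were at 0 as well. Mir483, which shares no exon base with Igf2, had 41 to 61 counts, and Mir335 had 3 to 13. These counts come from libraries of fragmented polyadenylated RNA and are not levels of the mature microRNAs.

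The same rule touches the members' own counts. Of the summed exon bases of Mest, 23.1% (912 bases) are shared with Copg2 on the opposite strand, so that reads there were left out of both. The shared part was 9.49% for H19, 8.29% for Meg3, 1.71% for Igf2 (with Igf2os on the opposite strand) and 0.486% for Plagl1, and no base was shared for Igf2r, Dlk1, Peg3, Cdkn1c and Grb10. Igf2os, counted outside the shared bases, had 54.1, 55.7 and 62.1 CPM in controls 1 to 3 and 56.7, 51.0 and 50.5 CPM in mutants 1 to 3. Airn, the paternal antisense transcript that silences Igf2r in cis, overlaps Igf2r but shares no exon base with it. It had 39.3, 44.7 and 33.9 CPM in controls 1 to 3 and 42.0, 38.3 and 38.8 CPM in mutants 1 to 3 (log2 fold change 0.01, adjusted p = 0.988, edgeR). Strand was ignored in the counting, so that reads of a gene and its antisense partner cannot be told apart within the exons of either.

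Igf2r (ENSMUSG00000023830, chromosome 17 from 12682406 to 12769664, reverse strand) is the maternally expressed receptor that takes up IGF2 and delivers it to lysosomes. It had 699, 675 and 832 CPM in controls 1 to 3 and 733, 746 and 765 CPM in mutants 1 to 3. The 3 mutants lay between the controls, and control 3 was highest. On the log2 scale the fold change was 0.025 ± 0.10 (SE, edgeR adjusted p = 0.971). Per kilobase, Igf2 had 29.6, 32.2 and 28.2 times the counts of its receptor Igf2r in the controls and 29.6, 26.1 and 28.5 times in the mutants. The difference of this log2 ratio was -0.097 (exact permutation test, two-sided p = 0.5, smallest possible 0.1), which is the size of its SD within a group (0.0970 and 0.0933, n = 3 each). It was -0.045 without control 2 and also without mutant 2.

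Dlk1 (ENSMUSG00000040856, chromosome 12 from 109452823 to 109463336, forward strand), a paternally expressed transmembrane protein related to Notch ligands that holds back adipocyte differentiation, showed the lowest fold change of the members. It was at 1992, 2341 and 2651 CPM in controls 1 to 3 and 2031, 1903 and 1924 CPM in mutants 1 to 3. Mutant 1 lay above control 1, so that the groups overlapped, and control 3 was highest. The log2 fold change was -0.25 ± 0.13 (SE, edgeR adjusted p = 0.632), with a 95% interval of the fold from 0.690 to 1.02. It was -0.15 without control 3, the library with the lowest sum of cartilage markers and the highest sum of muscle markers, and -0.36 without control 1. The part of other tissues in these values was not tested.

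Meg3 (ENSMUSG00000021268, chromosome 12 from 109541001 to 109571726, forward strand), a maternal long noncoding RNA 77.7 kb from Dlk1, varied most between samples of a group among the 10 members. It had 2890, 3291 and 2609 CPM in controls 1 to 3 and 3638, 2665 and 2776 CPM in mutants 1 to 3. Mutant 1 was highest and the other mutants lay within the control range. Its log2 fold change was 0.047 ± 0.15 (SE, edgeR adjusted p = 0.964). Meg3 had 0.454, 0.440 and 0.308 times the counts of Dlk1 per kilobase in the controls and 0.560, 0.438 and 0.451 times in the mutants. Control 3 was lowest and mutant 1 highest, and the other libraries were alike. The difference of the log2 ratio, 0.28, lay between the SD of the controls (0.311, n = 3) and that of the mutants (0.194, n = 3; exact permutation test, two-sided p = 0.5, smallest possible 0.1). It was 0.10 without control 3 and 0.17 without mutant 1.

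**Figure D3:**
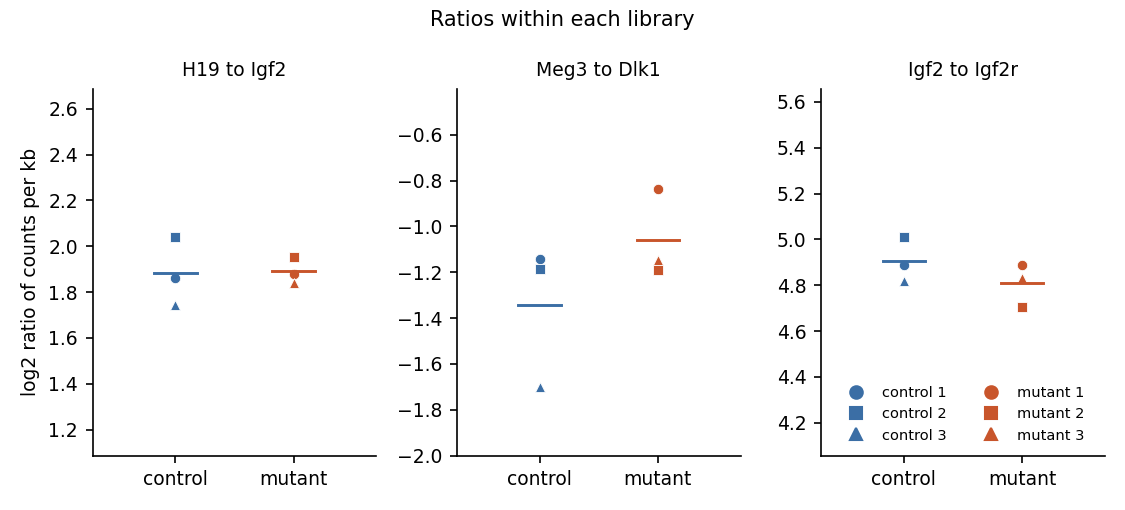
Log2 ratio of counts per kilobase of exon within each library for H19 to Igf2, Meg3 to Dlk1 and Igf2 to Igf2r, with points for libraries and bars for group means; each panel spans the same height on the log2 axis. The groups overlap in all 3 ratios, and the widest spread is that of Meg3 to Dlk1, from -1.70 in control 3 to -0.84 in mutant 1.

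Downstream in the same cluster, Rian, the host transcript of small nucleolar RNAs, had 1558, 1574 and 1517 CPM in controls 1 to 3 and 1790, 1814 and 1516 CPM in mutants 1 to 3. Mutants 1 and 2 were above every control and mutant 3 was at the level of the lowest control (log2 fold change 0.14, standard error 0.11, adjusted p = 0.797, edgeR). With 1 library left out, the log2 fold change of Rian ran from 0.099 (without mutant 2) to 0.22 (without mutant 3). Over the 4 further tested genes of the cluster, Rtl1, Rian, Mirg and Dio3, the fold change was above 0 in 3 and below 0 in Dio3.

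Cdkn1c (ENSMUSG00000037664, chromosome 7 from 143458350 to 143461050, reverse strand), 792 kb from Igf2, encodes a maternally expressed inhibitor of cyclin-dependent kinases that chondrocytes need to leave the cell cycle. Its levels were 1518, 1777 and 1810 CPM in controls 1 to 3 and 1651, 1459 and 1422 CPM in mutants 1 to 3. Mutants 2 and 3 were below every control, while mutant 1 lay within the control range. The log2 fold change was -0.17 ± 0.12 (SE, edgeR adjusted p = 0.753), with a 95% interval of the fold from 0.742 to 1.06. Grb10 (ENSMUSG00000020176, chromosome 11 from 11930508 to 12038683, reverse strand), an adaptor that dampens signalling of insulin and IGF receptors and is maternally expressed outside the nervous system, had 1422, 1268 and 1434 CPM in controls 1 to 3 and 1333, 1273 and 1229 CPM in mutants 1 to 3. Control 2 lay among the mutants (log2 fold change -0.10, standard error 0.10, adjusted p = 0.845, edgeR).

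Mest (ENSMUSG00000051855, chromosome 6 from 30723547 to 30748465, forward strand) encodes a paternally expressed protein of the alpha/beta hydrolase fold. It was at 1848, 1897 and 2068 CPM in controls 1 to 3 and at 1695, 1779 and 1771 CPM in mutants 1 to 3. Every mutant was lower than every control, which held for Mest alone among the members, 1 of 10, against 7.58% of all genes tested that were lower in this way, 6.85% that were higher and 14.4% in either direction. The log2 fold change was -0.15 ± 0.10 (SE, edgeR adjusted p = 0.760), with a 95% interval of the fold from 0.771 to 1.06, and it was -0.10 without control 3.

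Peg3 (ENSMUSG00000002265, chromosome 7 from 6703892 to 6730421, reverse strand), a paternally expressed zinc finger protein, had 2107, 2187 and 2169 CPM in controls 1 to 3 and 2037, 1978 and 2186 CPM in mutants 1 to 3. Mutant 3 was at the level of control 2, and the remaining mutants were below the controls (log2 fold change -0.060, standard error 0.10, adjusted p = 0.930, edgeR). Plagl1 (ENSMUSG00000019817, chromosome 10 from 13060504 to 13131694, forward strand), a paternally expressed zinc finger transcription factor that regulates other imprinted genes, had 703, 785 and 773 CPM in controls 1 to 3 and 734, 684 and 801 CPM in mutants 1 to 3. Mutant 3 was highest and mutant 2 lowest (log2 fold change -0.027, standard error 0.099, adjusted p = 0.969, edgeR). Per kilobase of exon, the mean log2 level of the 5 maternally expressed members minus that of the 5 paternally expressed members was 0.23, 0.21 and 0.13 in controls 1 to 3 and 0.34, 0.26 and 0.16 in mutants 1 to 3. The sign of these values depends on the division by exon length, which the comparison of the genotypes does not. The groups overlapped, and their means differed by 0.057 (0.013 without mutant 1, 0.027 without control 3 and 0.10 without mutant 3).

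The members varied little between samples of a genotype. The SD of the log2 level within a group, pooled over both groups, had a median of 0.0988 over the 10 members, 0.155 over the 112 genes at or above the lowest member in mean CPM, and 0.165 over all genes tested. It was lowest for Peg3 (0.0560) and highest for Meg3 (0.209). Counting error contributed little, at most 0.770% of the level in any library. As a description of the patterns, the gene nearest to each member was found by the root mean square difference of log2 levels over the 6 libraries, each gene centred on its own mean. The nearest gene of Igf2 was Josd1 (0.0244), that of H19 Prpf38b (0.0185), that of Igf2r Acvr1 (0.0181), that of Dlk1 Ppp1r3c (0.0304) and that of Meg3 Enpp5 (0.0466). For Peg3 it was Pwwp2a (0.0180), for Mest Wwc2 (0.0185), for Plagl1 Capn15 (0.0120), for Cdkn1c Abhd4 (0.0301) and for Grb10 Msto1 (0.0207). In 0 of 10 cases was another member the nearest gene. The search ran over all 16813 tested genes, of which 10 are members, so that this count cannot show whether members vary together. Among the members, Peg3 and Plagl1 were nearest to each other (0.0447), and so were Dlk1 and Cdkn1c (0.0754).

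**Figure D4:**
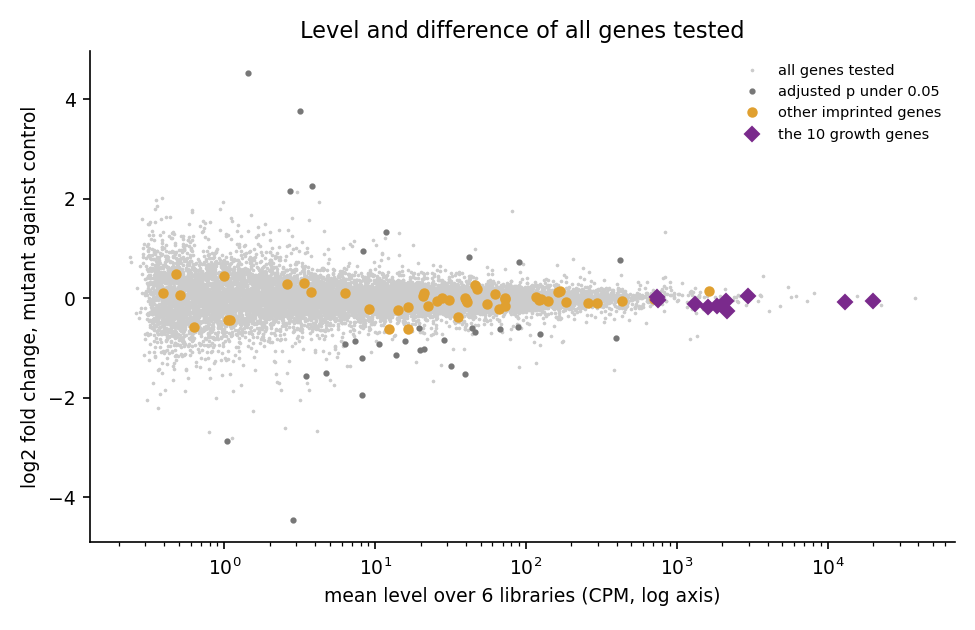
Mean level over the 6 libraries (CPM, log axis) against the log2 fold change of mutant against control for all 16813 genes tested, with the 32 genes past the adjusted threshold in dark grey, 46 other imprinted genes in yellow and the 10 growth genes as purple diamonds. The growth genes lie at the right, at high level, between -0.25 and 0.05.

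Other imprinted genes were examined as a list of 55, of which 53 were in the tables and 46 were tested. Whether each of these genes is imprinted in growth plate was not measured. edgeR called 0 of the 46 at an adjusted p under 0.05, against 0.190% of all genes tested. An unadjusted p under 0.05 was found for 3 of the 46, against 8.64% of all genes tested. Their median log2 fold change was -0.024, with 26 below 0 and 20 above. The groups did not overlap in 8 of the 46 (6 lower and 2 higher in the mutants), against 14.4% of all genes tested. The most abundant per length were Cd81 (593 TPM), which encodes a tetraspanin, Ndn (344 TPM), which encodes necdin, and Rian (289 TPM), and their log2 fold changes were -0.049, -0.064 and 0.14. Snurf, which shares its exons with Snrpn, had 0 counts in all libraries, so that the level of neither is given.

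The 3 genes with the lowest p were Cpa4, Klf14 and Nnat. Cpa4, a carboxypeptidase gene 131 kb from Mest, had 14.9, 14.7 and 15.2 CPM in controls 1 to 3 and 8.39, 10.8 and 9.82 CPM in mutants 1 to 3, with every mutant below every control. Its log2 fold change was -0.62 ± 0.12 (SE, edgeR adjusted p = 0.114), and it passed an adjusted p of 0.05 with DESeq2 (0.00520), with a range over all alternatives from 0.00520 to 0.316. Klf14, a transcription factor gene without introns 208 kb from Mest, had 37.6, 39.1 and 42.8 CPM in controls 1 to 3 and 28.8, 32.0 and 30.8 CPM in mutants 1 to 3. The log2 fold change was -0.38 (SE 0.087, edgeR adjusted p = 0.174, and 0.0530 to 0.491 over the alternatives), again without overlap. Nnat, which encodes neuronatin, a small protein of the endoplasmic reticulum, had 25.2, 14.6 and 19.98 CPM in controls 1 to 3 and 13.2, 12.9 and 12.9 CPM in mutants 1 to 3 (log2 fold change -0.61, standard error 0.17, adjusted p = 0.324, edgeR). Copg2, which lies next to Mest on the opposite strand, had 70.6 to 74.1 CPM in the controls and 67.6 to 74.8 CPM in the mutants. Cpa4 and Klf14 were named for their p among 46 genes, and genes near Mest outside the imprinted list were not examined.

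**Figure D5:**
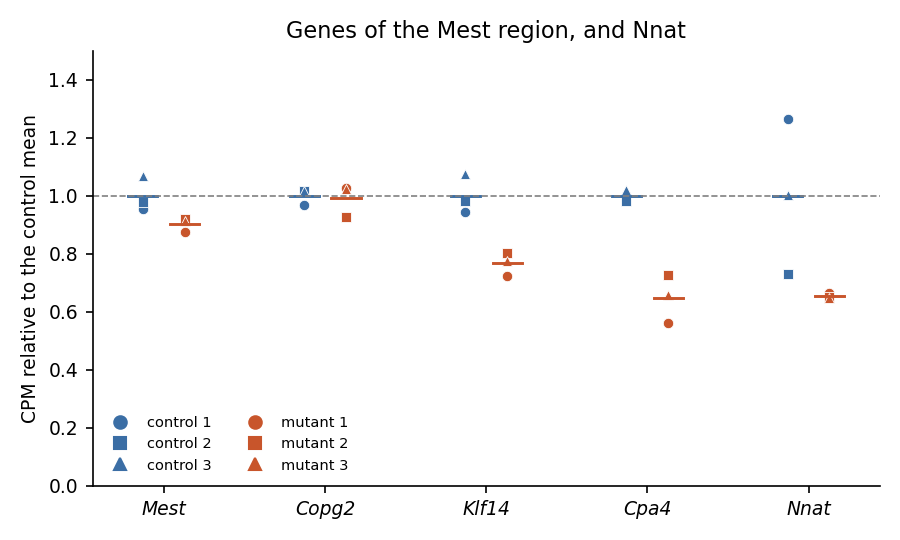
CPM of Mest, of 3 genes of the imprinted list near it on chromosome 6 and of Nnat on chromosome 2, relative to the control mean of each gene (dashed line at 1), with points for libraries and bars for group means. The mutants lie at 0.875 to 0.918 for Mest, at 0.722 to 0.804 for Klf14 and at 0.562 to 0.726 for Cpa4, while those of Copg2 lie on both sides of 1.

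Marker levels of other tissues differed between the groups in places, and 7.58% of all genes tested were lower and 6.85% higher in the mutants without overlap. The summed level of 6 tendon markers was 3208 to 3441 CPM in the controls and 2110 to 2472 CPM in the mutants, with 5 of the 6 genes lower without overlap. That of 6 erythroid markers was 545 to 1583 CPM and 288 to 427 CPM, with 5 of 6 lower without overlap, and that of 4 keratinocyte markers 5.36 to 11.7 CPM and 2.88 to 3.69 CPM, with 2 of 4. No marker of these lists was at 0 in all libraries. The part of these tissues in the levels of Mest, Cpa4, Klf14 and Nnat was not tested. Other markers were higher in the mutants without overlap. They were Dmp1 of the 7 bone markers (6.76 to 82.9 CPM in the controls and 84.5 to 198 CPM in the mutants), Kdr and Emcn of the 5 endothelial markers, and Csf1r of the 5 myeloid markers. The fold change was above 0 in all 7 bone markers, with a median log2 fold change of 0.26, although their sum, mostly Col1a1, overlapped. The sums of the cartilage, hypertrophic, muscle, endothelial, myeloid, fibroblast and Schwann cell markers overlapped as well. Over all marker lists 60 genes were tested. edgeR called 2 of the 60, 1 tendon and 1 keratinocyte marker, both lower in the mutants, against 0.190% of all genes tested. An unadjusted p under 0.05 was found for 17 of the 60, against 8.64% of all genes tested.

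Partners of IGF2 were likewise compared. The list held 14 genes for the ligand Igf1, receptors, receptor substrates (Irs1 and Irs2), binding proteins and binding proteins of Igf2 RNA. Of these, 13 were tested, with a median log2 fold change of -0.083. edgeR called 0 of the 13, against 0.190% of all genes tested, and 0 had an unadjusted p under 0.05, against 8.64%. Igf1r, the receptor through which IGF2 signals, had 56.8, 47.9 and 73.6 CPM in controls 1 to 3 and 55.1, 51.3 and 55.5 CPM in mutants 1 to 3 (log2 fold change -0.14, adjusted p = 0.853, edgeR). The binding proteins were the most abundant of the list per length, with Igfbp5 at 766 TPM, Igfbp4 at 510 TPM and Igfbp3 at 493 TPM. Igfbp5 had 1516, 1509 and 1741 CPM in controls 1 to 3 and 1394, 1342 and 1395 CPM in mutants 1 to 3, the only 1 of the 13 tested genes of this list without overlap, against 14.4% of all genes tested (log2 fold change -0.21, standard error 0.10, adjusted p = 0.636, edgeR). Without control 3 its log2 fold change was -0.13. Igfbp4 and Igfbp3 had log2 fold changes of -0.085 and -0.029. Igf2bp1, which binds Igf2 RNA, was at 25.02 to 31.0 CPM in the controls and 22.9 to 27.4 CPM in the mutants.

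Of 20 genes that set, keep or read imprints, 18 were tested, with a median log2 fold change of -0.024. edgeR called 0 of the 18, against 0.190% of all genes tested. An unadjusted p under 0.05 was found for 1 of the 18, against 8.64% of all genes tested. That gene was Tet1, which oxidises methylated cytosine in a reaction that uses 2-oxoglutarate. It had 26.2, 26.8 and 26.5 CPM in controls 1 to 3 and 22.7, 22.7 and 22.1 CPM in mutants 1 to 3, without overlap (log2 fold change -0.24, standard error 0.081, adjusted p = 0.441, edgeR). Ctcf, the insulator protein that binds between H19 and Igf2, had 97.9, 93.5 and 94.1 CPM in controls 1 to 3 and 84.5, 87.4 and 91.7 CPM in mutants 1 to 3, also without overlap (log2 fold change -0.11, adjusted p = 0.731, edgeR). Setdb1, a histone methyltransferase that Trim28 recruits, was higher without overlap, at 65.5, 64.8 and 64.6 CPM in controls 1 to 3 and 67.1, 75.6 and 69.2 CPM in mutants 1 to 3 (log2 fold change 0.12, adjusted p = 0.731, edgeR). These were 3 of 18 genes without overlap, against 14.4% of all genes tested. Tet2 and Tet3, the other Tet genes of the list, overlapped between the groups. Their log2 fold changes were -0.0020 and 0.037 (edgeR adjusted p = 0.998 and 0.957). Ehmt2, a histone H3 lysine methyltransferase, had a log2 fold change of -0.13. Trim28, which tethers silencing enzymes to imprinted control regions, had one of -0.0094, and Dnmt1, which copies DNA methylation at replication, one of 0.038.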

How the data were processed

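Growth plate RNA of 3 control and 3 Idh1 mutant samples was compared. The authors trimmed the reads (Trim Galore 0.6.4), mapped them to GRCm38 with STAR 2.6.1d and counted them on exons with featureCounts 1.6.4, ignoring strand and leaving out reads on several places or genes. The deposited values are whole-number counts per gene, without normalization, and 0 columns of sample values were left unused. From these, edgeR 4.0.16 in R 4.3.3 was run over 16813 genes (filterByExpr, minimum count 10, minimum total count 15; TMM factors; glmQLFit and glmQLFTest on genotype alone; Benjamini-Hochberg adjustment; threshold 0.05). CPM used the TMM-scaled totals of the tested genes, and TPM the exon lengths in the files. A level of 3 counts corresponded to 0.0979 to 0.127 CPM, which covers counting error only. Intervals are 95% intervals from the quasi-likelihood fit. The functions were tested on simulated data. Replicates differed by more than sampling noise, with chi-square values of 11.6 to 45.1 for each degree of freedom. The study used littermate controls and had litter as a term in its own DESeq2 model. The labels used here give neither litter nor animal, so genotype alone was fitted, which departs from that model, and p-values measure the spread between these samples. Same-numbered samples did not deviate together, and whether the replicate numbers follow litters is not known. Biotypes came from GENCODE M21 (GRCm38), and microRNA sequences from RefSeq. The members and lists were chosen with earlier results of these data known. The genes named were the members, the 3 genes with the lowest p and the 3 with the highest TPM in each further list, genes overlapping a member, the nearest gene of each member and Idh1. Setdb1, Tet2, Tet3, the single markers, Snurf, Snrpn, Rtl1, Mirg and Dio3 were named after their values were seen. Alternatives were DESeq2 1.42.0, the replicate number as a block, limma-voom (limma 3.58.1), scaling by upper quartiles, testing without a low-count filter, and each library left out.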

Additional observations from a re-analysis of the deposited data

How the results depend on the processing

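With 3 samples a group, small differences were not detectable, and the intervals given for each gene do not mark the limit. They are not adjusted for the number of genes tested, while the calls are. The 95% intervals of the log2 fold change excluded 0 for Cpa4 (-0.893 to -0.354) and Klf14 (-0.579 to -0.188). Those of Nnat (-1.002 to -0.223) and Tet1 (-0.419 to -0.058) excluded 0 as well. With the low-count filter, edgeR did not call these genes. The count of members called was 0 in all 12 alternatives, as were those of the IGF partners and of the genes that keep imprints. Genes called over the whole table, 32 with edgeR, numbered 193 with DESeq2, 19 with limma-voom, 259 without the low-count filter and 3 to 17 with 1 library left out (13, 7 and 17 without control 1, 2 and 3, and 7, 3 and 6 without mutant 1, 2 and 3). The cause was not tested. Of the other imprinted genes, DESeq2 called 1 (Cpa4) and edgeR without the low-count filter 2 (Cpa4 and Nnat). Samples with the same replicate number did not deviate together (correlations -0.13, 0.0070 and -0.095). From 3 samples a group this cannot tell whether same-numbered samples shared a litter. With the replicate number as a block, edgeR called 3 genes and DESeq2 96, with 0 members each, and the log2 ratio differences (0.0099, 0.28 and -0.097) are the same by arithmetic, since the pairs are balanced.

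With 1 library left out, 53 of 60 values of the members kept their direction and 7 turned it. The log2 fold change ran from -0.11 to 0.022 for H19, from -0.028 to 0.13 for Igf2r, from -0.11 to 0.14 for Meg3 and from -0.089 to 0.031 for Plagl1, and the difference of the log2 ratio of H19 to Igf2 from -0.060 to 0.090. Without a change of direction, the log2 fold change ran from -0.11 to -0.0090 for Igf2, from -0.36 to -0.15 for Dlk1, from -0.10 to -0.024 for Peg3, from -0.18 to -0.096 for Mest, from -0.25 to -0.12 for Cdkn1c and from -0.16 to -0.071 for Grb10. The ratio differences ran from 0.10 to 0.38 for Meg3 to Dlk1 and from -0.14 to -0.045 for Igf2 to Igf2r. Among other genes the log2 fold change ran from -0.13 to 0.039 for Ndn, from -0.27 to 0.047 for Igf1r, from -0.10 to 0.053 for Igfbp3, from -0.051 to 0.053 for Trim28, from -0.011 to 0.11 for Dnmt1 and from -0.049 to 0.41 for Idh1. With upper-quartile factors Trim28 was at 0.0031.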
